A study of Mus musculus with 6 samples.

Results

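CTBP2 signal was described at the sites around Slc7a11 and Hmox1, a pair of oxidative stress genes, in mouse bone marrow-derived macrophages given vehicle or lipopolysaccharide (LPS). CTBP2 is a transcriptional co-repressor that does not read DNA itself and is brought to chromatin by DNA-binding factors. The sites were picked by position in the deposited table of the LPS comparison: a site belonged to Slc7a11 when its centre lay between 50280 and 50450 kb on chromosome 3, and to Hmox1 when it lay between 75770 and 75860 kb on chromosome 8. This gave 23 of 62236 sites, 9 in the Slc7a11 window and 14 in the Hmox1 window, all 1001 bp wide. They are numbered here along each chromosome from the lowest position. Positions are those of the table, taken as GRCm39, while its gene names follow GRCm38. The submitters' processing notes list both mm39 and mm10.

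All 6 libraries came from wild-type male C57BL6/N mice of 6 to 12 weeks, whose marrow cells were grown into macrophages in medium with L929 cell supernatant. In 3 libraries the cells had vehicle (PBS) and in 3 they had LPS, a bacterial cell wall component, at 100 ng/ml, both for 3 h before crosslinking and immunoprecipitation with an antibody to CTBP2. Replicates are numbered in the labels without being tied to separate mice or cultures, so every p-value rests on the spread among libraries alone, part or all of which may be technical. Signal in a population of cells cannot tell more cells with CTBP2 at a site from more CTBP2 per cell, no input library was analysed here, and the cell type could not be checked against RNA markers.

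Both genes belong to the defence against oxidants and are known targets of the transcription factor NRF2 (gene Nfe2l2). Slc7a11 encodes xCT, the transport subunit of the cystine-glutamate exchanger, which brings in cystine for glutathione synthesis. It is also a known target of ATF4, the factor of the amino acid response. Hmox1 encodes haem oxygenase-1, which breaks haem down to biliverdin, carbon monoxide and iron, and the repressor BACH1 holds it down until haem or oxidants displace that repressor. Both genes are known to be induced in macrophages by LPS.

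Values are the authors' normalised signal with each library divided by its own median over all sites and brought back to a common level ("median-scaled signal"), since the library medians ran from 35.5 to 73.0 with the highest in a vehicle library. If the smallest step in each column is 1 read, the libraries held 3243265 to 4553169 reads in sites, and the members 10 to 282 reads per site and library. Log2 folds are those of limma on log2(value + 1), which understates changes at low sites, with Benjamini-Hochberg adjustment over all sites and a call at an adjusted p under 0.05.

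The summed signal of the Slc7a11 window was 1.92 times as high after LPS, while that of the Hmox1 window was 1.26 times lower. At Slc7a11, 5 of 9 sites rose and 0 fell. Hmox1 had 0 of 14 sites that rose and 5 that fell. Over all sites, 16.1% were called higher and 13.5% lower by the same rule. The median log2 fold was 0.84 over the Slc7a11 sites and -0.40 over the Hmox1 sites, beside -0.02 over all sites. Each LPS library exceeded each vehicle library at 6 of the 9 Slc7a11 sites and at 0 of the 14 Hmox1 sites, against 21.6% of all sites. The reverse order was seen at 0 of 9 and 7 of 14, against 20.6%.

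**Figure D1:**
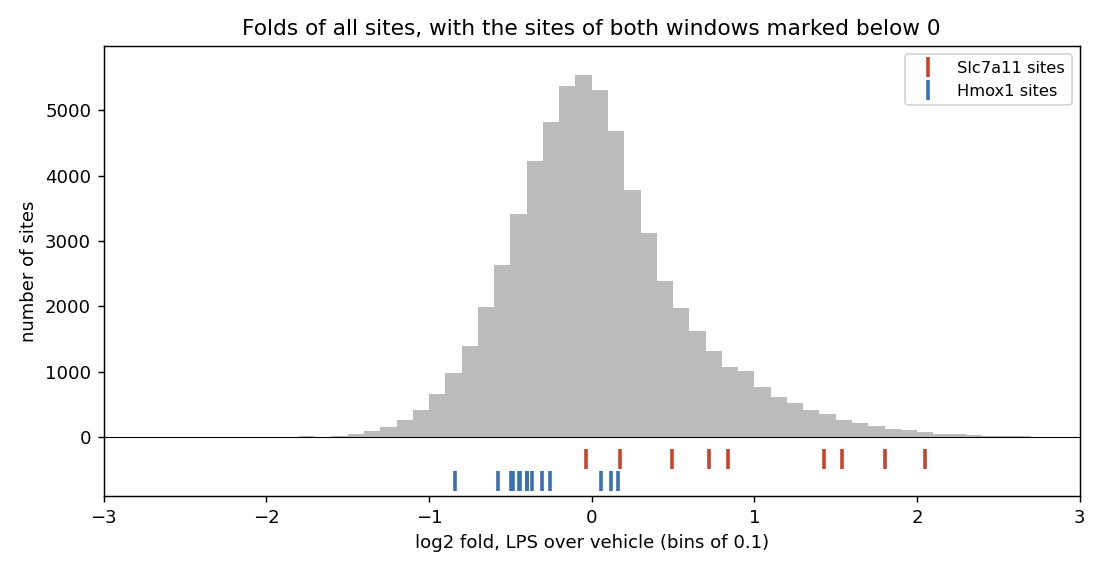
Histogram of the log2 folds (LPS over vehicle, bins of 0.1) of all 62236 sites, with 1 tick per site for the Slc7a11 window (upper row) and the Hmox1 window (lower row). Slc7a11 ticks run from -0.04 to 2.05 and Hmox1 ticks from -0.84 to 0.16.

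The positions in the table did not line up with the gene positions it lists. It names Slc7a11 for the 9 sites of that window, but Gapdhrt2 for all 14 of the other. The offset between sites and gene starts was therefore measured from neighbouring genes on the GRCm38.p6 gene table, after the mismatch was seen, and no shifted position is printed. At Hmox1, 14 of the 20 nearest gene starts on the upper side had a site within 500 bp at 1 common offset (next best offset 5), the nearest of them Mcm5, 15.9 kb away, and this offset placed the start of Hmox1 inside site 7 (0.31 kb from its centre). The 20 starts on the lower side gave another offset, from starts at least 2522 kb away, with 9 hits (next best 7), which would put the gene start 0.84 kb from the centre of site 14. The placing by the upper side is used here because its starts lie next to the gene. Distances at Hmox1 come from the 10 nearest starts of each side as 1 set, which also put the start in site 7. At Slc7a11 the sides differed as well. The offset of the upper side (14 of 20 starts, next best 5, the nearest 781 kb away) put the gene start 0.46 kb from the centre of site 2, and that of the lower side (7 of 20, next best 5, the nearest 8701 kb away) put it 0.11 kb from the centre of site 9. Which of these sites holds the Slc7a11 start was not settled with the annotation used here. Both were among the sites that rose. The gene record reached past the start used here. At the offset of the upper side it also spanned sites 3 to 9, up to 46.9 kb upstream of that start.

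The promoter of Slc7a11 is shown because each placing put the gene start inside a site that gained CTBP2. Neither placing was settled, and the start may lie elsewhere. These are the 250 bases before the start from RefSeq (GRCm38.p6, chr3:50443614-50443863, minus strand), written 5′ to 3′ along the gene, with capitals on matches to TGATGNAA, the letters of a CEBP-ATF element, the kind of sequence that ATF4 binds.
Slc7a11: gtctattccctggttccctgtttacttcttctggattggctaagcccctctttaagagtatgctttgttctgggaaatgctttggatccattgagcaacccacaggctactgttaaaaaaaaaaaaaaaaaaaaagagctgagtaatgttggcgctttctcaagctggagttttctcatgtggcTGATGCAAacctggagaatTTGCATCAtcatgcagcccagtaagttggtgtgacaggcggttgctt
Both strands were searched, and there were 2 matches that do not overlap. One read TGATGCAA at positions -66 to -59 from the start, and the other read TTGCATCA, the opposite strand, at -47 to -40. Of 32851 promoters of the same length, 3.45% held a match and 0.0396% held 2 or more. The window had 0 matches to TGACNNNGC (the core of the antioxidant response element, in 10.2% of promoters), TGANTCA (AP-1, 6.75%), GGANTTTCC (NF-kB, 1.065%), CACCTG (ZEB, 17.2%) and GAGGAAGT (PU.1, 2.44%), which says only that these letters are not in these 250 bases. No promoter entry of Hmox1 was used.

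The strongest Slc7a11 site after LPS was site 9, at chromosome 3, 50397420 to 50398420. Vehicle replicates 1 to 3 held 68.7, 81.1 and 69.8 there, and LPS replicates 1 to 3 held 281, 237 and 254. Replicates are given in this order throughout. The groups stood far apart, with the lowest LPS library well above the highest vehicle library. The mean went from 73.2 ± 6.85 to 257 ± 21.8 (SD, n = 3 each), a 3.52-fold rise, and the log2 fold was 1.80 ± 0.14 (SE, with 7.95e-12 as limma's adjusted p). In vehicle the site stood at the 72.9th percentile of all sites, and in LPS at the 99.5th.

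Site 7, at 50389987 to 50390987 and the next but one below site 9, had the largest fold of the window. It held 17.2, 22.2 and 25.3 in the vehicle libraries and 96.1, 78.5 and 100 in the LPS libraries. A site that was weak in vehicle thus reached the 82.6th percentile of all sites in LPS. The means were 21.5 ± 4.09 and 91.6 ± 11.5 (SD, n = 3 each), and the log2 fold was 2.05 ± 0.19 (SE, with 6.30e-10 as limma's adjusted p).

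A pair of rising sites lay toward the other end of the window. Site 3, at 50356665 to 50357665, held 30.9, 41.0 and 34.9 in vehicle and 105, 95.6 and 114 in LPS. The log2 fold there was 1.54 ± 0.17 (SE, with 1.85e-08 as limma's adjusted p). Site 2, at 50350961 to 50351961, was the weakest site of the window in vehicle, at 13.7, 17.9 and 13.2, and held 40.4, 33.3 and 53.2 in LPS. Its log2 fold was 1.43 ± 0.28 (SE, with 0.000162 as limma's adjusted p). The groups did not overlap at either site. Site 8, at 50393032 to 50394032, rose less, from 85.9, 61.4 and 67.4 to 100, 92.2 and 108, with a log2 fold of 0.49 ± 0.16 (SE, with 0.0191 as limma's adjusted p). Its lowest LPS library was close to its highest vehicle library. The call of site 8 was lost without vehicle replicate 2 (log2 fold 0.39, limma adjusted p = 0.109) and without LPS replicate 3 (log2 fold 0.44, limma adjusted p = 0.0814), and also without limma's trend and robust options (adjusted p = 0.0601). Those of sites 2, 3, 7 and 9 held without each single library.

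**Figure D2:**
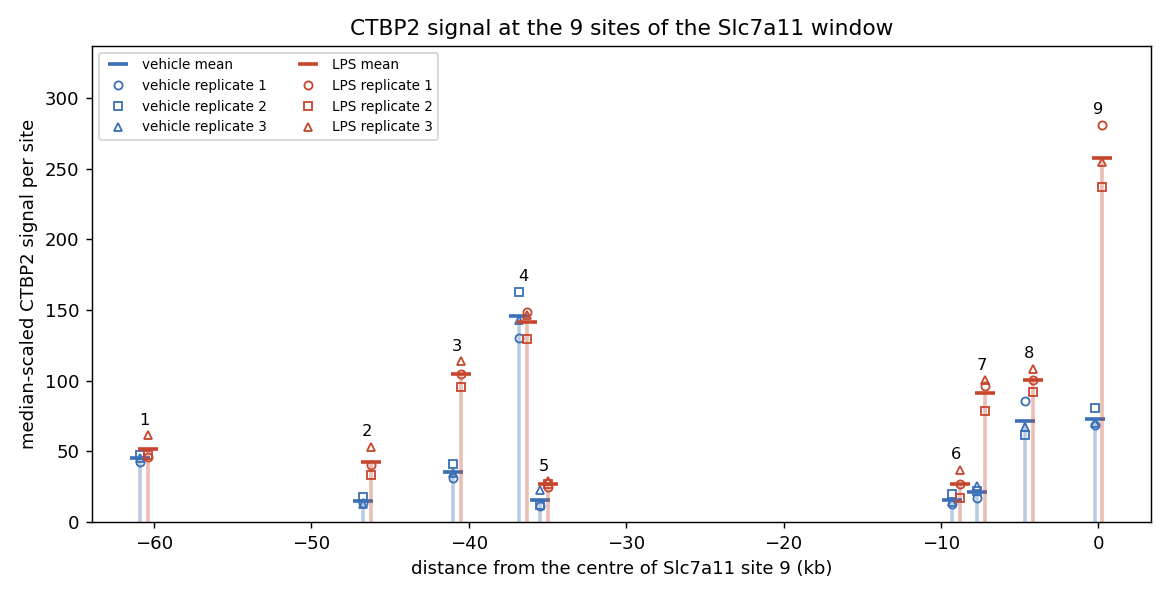
Median-scaled CTBP2 signal at the 9 Slc7a11 sites (vertical axis from 0) against distance in kb from the centre of site 9, with 1 symbol per library and a bar at each group mean. At sites 2, 3, 7 and 9 all LPS symbols (red) stand clear of the vehicle symbols (blue), while at site 4, the strongest site in vehicle, they overlap.

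The rise was uneven within the locus. Site 4, at 50360870 to 50361870, was the strongest site of the window in vehicle and lay only 4.21 kb from site 3. It held 130, 163 and 143 in vehicle and 148, 130 and 146 in LPS. These libraries overlapped, and the log2 fold was -0.04, with a 95% interval from -0.32 to 0.24 (limma adjusted p = 0.868), so a rise of the size at sites 2, 3, 7 or 9 lies outside the interval. Its share of the summed signal of the window was 33.1% ± 1.73 in vehicle against 16.8% ± 0.524 after LPS (SD, n = 3 libraries), while that of site 9 was 16.7% ± 0.711 and 30.6% ± 2.14. The strongest site of the locus was therefore site 4 in vehicle and site 9 in LPS.

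The remaining Slc7a11 sites did not pass the test. Site 1 averaged 45.3 ± 2.73 before and 51.7 ± 8.46 after LPS (SD, n = 3 libraries), and its log2 fold was 0.18 (limma adjusted p = 0.503). Sites 5 and 6, both weak at means of 15.4 ± 6.45 and 15.6 ± 3.64 (SD, n = 3) in vehicle, held 25.1, 27.3 and 28.9 (site 5) and 27.3, 17.1 and 37.0 (site 6) in LPS. Their log2 folds were 0.84 (limma adjusted p = 0.0622) and 0.72 (limma adjusted p = 0.12). Their 95% intervals, before adjustment over sites, ran from 0.14 to 1.54 and from 0.01 to 1.43. Site 5 passed without vehicle replicate 3 (limma adjusted p = 0.00816) and without limma's trend and robust options (adjusted p = 0.0207).

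The site that the measured offset placed at the Hmox1 start did not change detectably. Site 7, at chromosome 8, 75819753 to 75820753, held 99.6, 70.8 and 79.4 in the vehicle libraries and 87.3, 94.7 and 76.7 in the LPS libraries. The libraries of both groups were interleaved. The log2 fold was 0.06, with a 95% interval from -0.27 to 0.39 (limma adjusted p = 0.819). In vehicle this site stood at the 78.6th percentile of all sites, higher than the 72.9th of Slc7a11 site 9. Site 5, at 75812364 to 75813364 and 7.39 kb below the placed start, held 102, 84.5 and 93.9 in vehicle and 109, 111 and 93.9 in LPS. It had the highest LPS mean of the window, 105 ± 9.39 against 93.4 ± 8.72 in vehicle (SD, n = 3 libraries). Its log2 fold of 0.16 ± 0.15 (SE) did not pass (limma adjusted p = 0.443).

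The 5 Hmox1 sites that fell lay outside the gene itself at the measured offset. Site 1, at 75789618 to 75790618 and inside the neighbouring gene Tom1 at that offset, was the strongest of the window in vehicle. It held 135, 129 and 136 in vehicle and 99.3, 92.2 and 77.6 in LPS, so the groups did not overlap. The log2 fold was -0.57 ± 0.15 (SE, with 0.00293 as limma's adjusted p). Site 3, at 75797911 to 75798911 and 1.66 kb past the end of Tom1, fell most. It held 63.0, 46.9 and 61.4 in vehicle and 32.7, 34.1 and 27.1 in LPS, with a log2 fold of -0.84 ± 0.19 (SE, with 0.00118 as limma's adjusted p). These calls held without each single library.

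Site 6, at 75815860 to 75816860 and 3.89 kb below the placed Hmox1 start, held 103, 133 and 109 in vehicle and 99.3, 78.5 and 74.9 in LPS. LPS replicate 1 nearly reached the lowest vehicle library. The log2 fold was -0.45 ± 0.16 (SE, with 0.0277 as limma's adjusted p). Site 2, inside Tom1 at the offset, had a log2 fold of -0.40 (limma adjusted p = 0.0431), and site 14, inside Mcm5, which encodes a subunit of the replicative helicase, had -0.49 (limma adjusted p = 0.0414). At site 2 the groups were well apart, with 103, 108 and 113 in vehicle against 86.2, 87.0 and 72.2 in LPS, while at site 14 the lowest vehicle library (54.1) was just above the highest LPS library (53.5). The call of site 2 was lost on leaving out each of the 6 libraries in turn (adjusted p from 0.053 to 0.161 by limma), that of site 6 on leaving out vehicle replicate 2, LPS replicate 2 or LPS replicate 3 (up to 0.166), and that of site 14 on leaving out vehicle replicate 1, vehicle replicate 2, LPS replicate 2 or LPS replicate 3 (up to 0.214). Sites 8 and 9, inside Hmox1 at the offset, averaged 34.0 ± 9.23 and 25.4 ± 5.26 in vehicle against 23.7 ± 5.74 and 27.4 ± 3.61 in LPS (SD, n = 3 libraries), and neither passed (limma adjusted p = 0.15 and 0.77). The other 5 sites that did not pass, 4 and 10 to 13, had log2 folds from -0.44 to -0.25.

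The number of Hmox1 sites that fell depended on the scaling and on single libraries. On the deposited values without median scaling it was 0, and the number of Slc7a11 sites that rose was 3 (sites 3, 7 and 9). Few sites fell anywhere on those values, 30 of 62236 against 1178 that rose. The log2 folds of lost calls were -0.51 at Hmox1 site 1, -0.78 at Hmox1 site 3 and 1.49 at Slc7a11 site 2 on those values, near the -0.57, -0.84 and 1.43 after scaling. On those values 97.5% of the called sites of the whole table were higher, against 54.4% after scaling. Without vehicle replicate 1 or 2 the Hmox1 count was 3, and without LPS replicate 2 or 3, or without limma's trend and robust options, it was 2. The number of lower sites over the whole table dropped in these settings too. It was 8409 in the main fit, and 6406 and 6187 without vehicle replicates 1 and 2. Without LPS replicates 2 and 3 it was 6032 and 6381, and without limma's trend and robust options 7280. In the authors' deposited table, at their FDR under 0.05, 4 Slc7a11 sites were higher (2, 3, 7 and 9) and 0 Hmox1 sites were called in either direction, where 4.01% of all sites were higher and 0.37% lower. The authors' deposited log2 folds at those 4 sites were 1.13, 1.23, 1.63 and 1.49, and that at Hmox1 site 7 was 0.0128. These folds are not the same measure as those of limma here. They were smaller than the differences between the deposited log2 concentrations. Those were 5.50 in LPS and 3.91 in vehicle at Slc7a11 site 2. At Hmox1 site 1 they were 6.52 and 7.12, where the deposited log2 fold was -0.147.

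**Figure D3:**
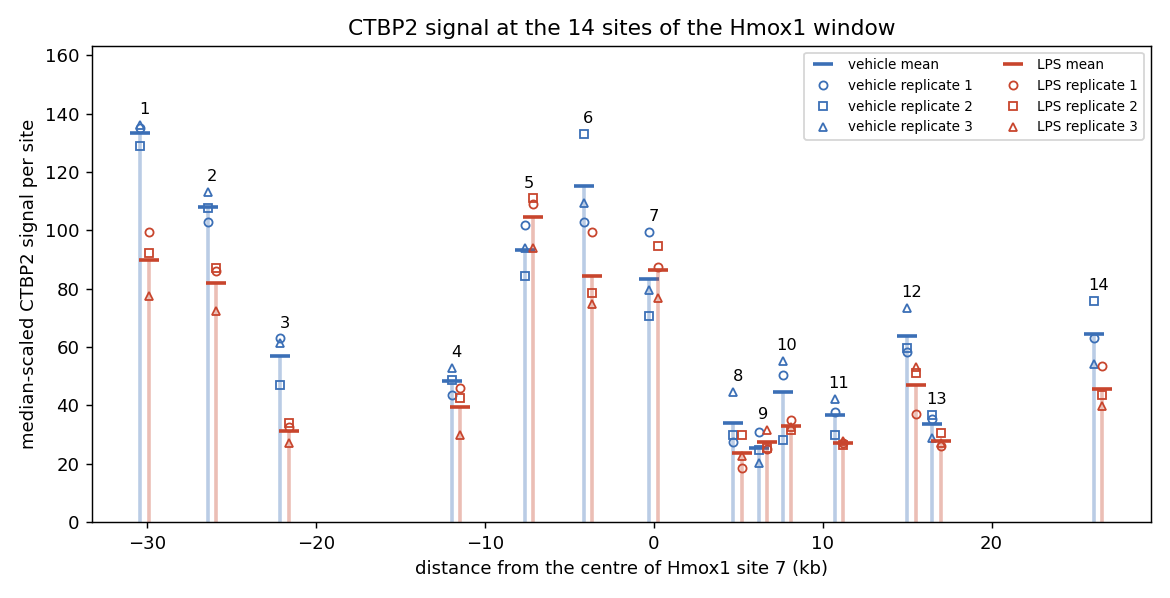
Median-scaled CTBP2 signal at the 14 Hmox1 sites (vertical axis from 0) against distance in kb from the centre of site 7, the site at the placed gene start, with 1 symbol per library and a bar at each group mean. LPS symbols (red) lie below the vehicle symbols (blue) at sites 1, 2 and 3 and mix with them at sites 5 and 7.

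**Figure D4:**
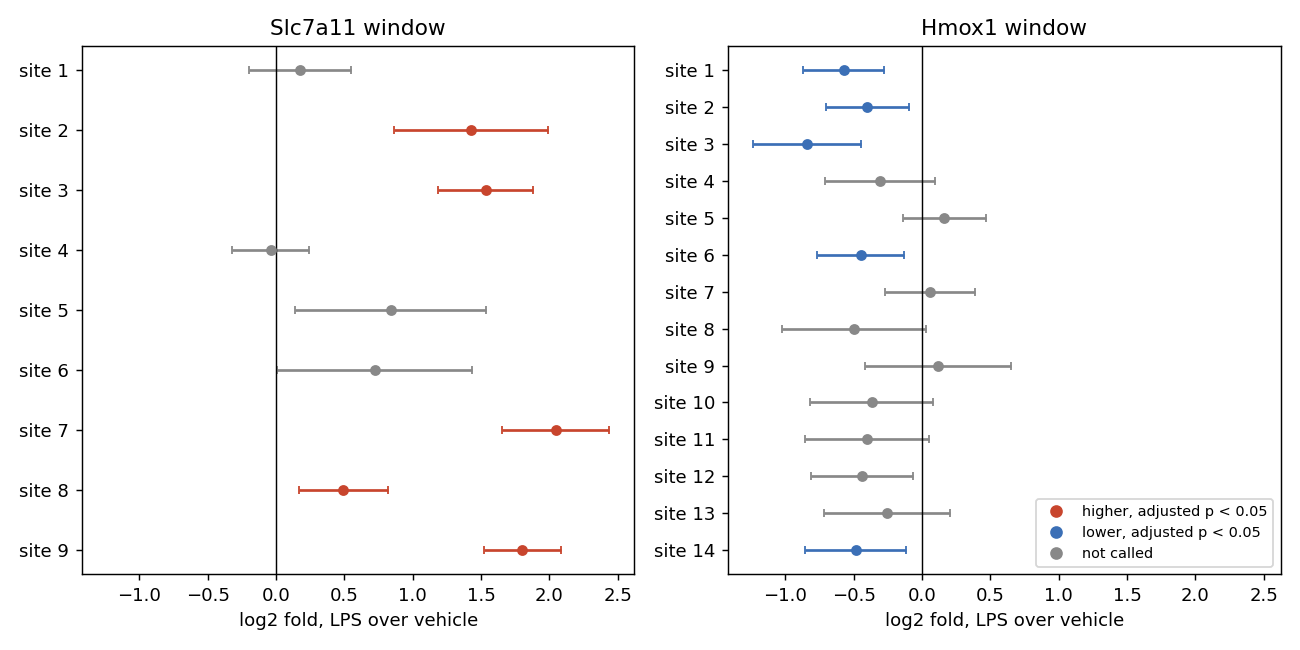
Log2 fold (LPS over vehicle) of each site with its 95% interval from limma, for the Slc7a11 window (left) and the Hmox1 window (right), coloured by call. The 5 called Slc7a11 sites lie between 0.49 and 2.05 and the 5 called Hmox1 sites between -0.84 and -0.40.

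Summed over its sites, the Slc7a11 window held 413, 466 and 437 in vehicle and 869, 759 and 903 in LPS, a mean of 439 ± 26.4 against 844 ± 75.6 (SD, n = 3 each). The Hmox1 window held 952, 905 and 965 in vehicle and 783, 779 and 687 in LPS, a mean of 941 ± 31.5 against 749 ± 54.3. Neither pair of groups overlapped. The log2 difference was 0.94 at Slc7a11 and -0.33 at Hmox1, each with an exact two-sided permutation p = 0.1, the smallest that 3 libraries against 3 can give. On the deposited values without median scaling the difference was 1.00 at Slc7a11 (exact permutation p = 0.1) and -0.27 at Hmox1 (exact permutation p = 0.7). The Hmox1 sum is that of the window and not of the gene alone. At the measured offset only sites 7 to 9 lay inside Hmox1. Sites 1 and 2 lay inside Tom1, and sites 13 and 14 inside Mcm5.

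The difference between the loci was tested as the ratio of Slc7a11 to Hmox1 signal within each library, which no scaling of a library changes. It was 0.434, 0.515 and 0.453 in vehicle and 1.11, 0.974 and 1.32 in LPS. In vehicle the Hmox1 window thus held more than the Slc7a11 window in every library, and in LPS the ratio lay on both sides of 1. The mean log2 ratio was 1.27 higher in LPS, with the groups apart (exact two-sided permutation p = 0.1, the smallest possible). These 3 tests of summed signal have an adjusted p = 0.1 as well.

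**Figure D5:**
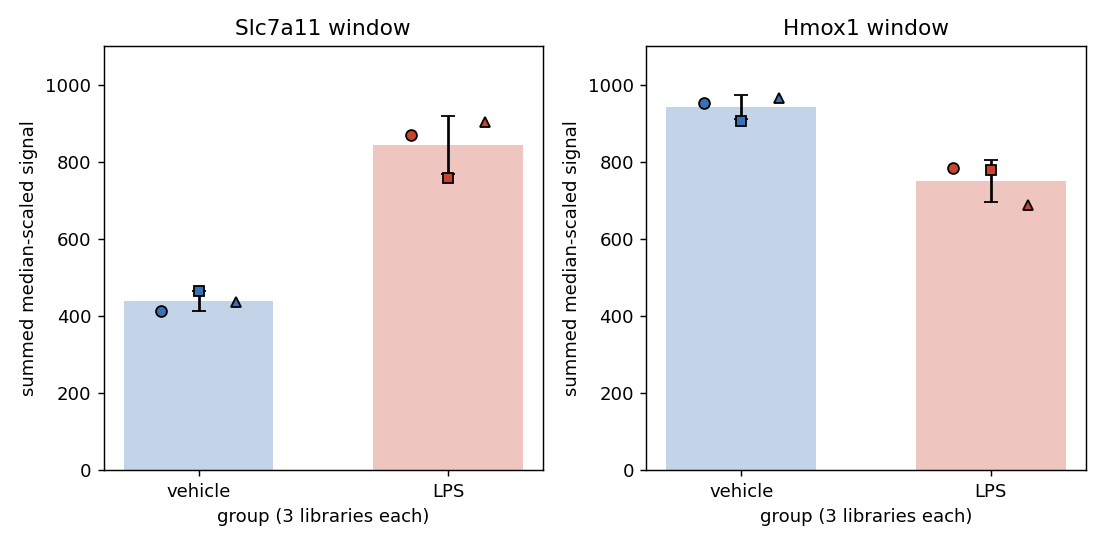
Summed median-scaled signal of the Slc7a11 window (left) and the Hmox1 window (right) by group, with bars from 0 at the mean, error bars of 1 SD and 1 symbol per library (n = 3). LPS libraries sit at 759 to 903 against 413 to 466 in vehicle for Slc7a11, and at 687 to 783 against 905 to 965 for Hmox1.

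Outside the windows, the nearest Slc7a11 neighbours, 61.7 kb below and 93.2 kb above the outermost members, had log2 folds of 0.08 and 0.12 and did not pass (limma adjusted p = 0.8 and 0.721). The nearest Hmox1 neighbour below, at 75769255 to 75770255, fell by 0.54 on the log2 scale (limma adjusted p = 0.0121). The one above, at 75878885 to 75879885, rose by 0.99 (limma adjusted p = 0.000232).

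The sites elsewhere most like Slc7a11 site 9 over the 6 libraries, by root mean square difference of the log2 values, included those at chromosome 6, 99164904 (difference 0.138) and chromosome 4, 62183891 (0.155), and the table names Foxp1 and Slc31a2 there. The first of them went from 70.7 ± 3.22 to 277 ± 30.6 (SD, n = 3 each). Those most like Hmox1 site 1 lay at chromosome 10, 117887618 (0.0694), chromosome 2, 71410836 (0.0774) and chromosome 1, 132298153 (0.0777), where the table names Rap1b, Hat1 and Nuak2. Names in the table follow other coordinates than the sites, so the genes at these positions may differ.

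The wider oxidative stress pathway was counted from a list of 38 other genes: NRF2, its inhibitors and partners, enzymes of glutathione, thioredoxin and peroxide or superoxide removal, haem and iron genes, NADPH-making enzymes, and genes of the amino acid and ATF4 response (Atf3, Atf4, Ddit3, Chac1 and Slc3a2, the partner chain of xCT). The offset could be measured for 32 of them. Of the 348 sites within 50 kb of these genes, 55 rose, 33 fell and 260 did not pass, which is 15.8% and 9.48% beside the 16.1% and 13.5% of all sites. The share of rising sites was thus near that of the table as a whole. The median log2 fold was 0.00. At least 1 site rose at 21 genes and at least 1 fell at 17, with both at 10 and neither at 4. These genes had 4 to 19 sites each, and a gene with more sites more readily holds a called one. The gene counts have no share over all genes beside them and are description only. Sites within 50 kb may belong to neighbouring genes. By the table's own names, 33 of 220 sites of the list rose and 26 fell. Those names follow other coordinates than the sites, so the sites counted this way may not lie near the listed genes.

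Among rising sites of the list, the smallest p-values were at Taldo1, Maff, Mafg and Nfe2l2. Distances in this and the next paragraph are from gene starts placed by the measured offset, and may be wrong where that offset is. Among the genes named in both, the site nearest to the placed start lay from 0.014 kb (Blvra) to 7.90 kb (Taldo1) away. A site 42.3 kb from the start of Taldo1, which encodes transaldolase of the pentose phosphate pathway, went from 87.3 ± 6.69 to 204 ± 18.4 (log2 fold 1.21). A site 1.50 kb from the start of Maff, a small MAF protein that pairs with NRF2 and BACH1, went from 108 ± 13.3 to 225 ± 28.0 (1.06). One 5.60 kb from the start of its relative Mafg went from 33.4 ± 5.49 to 86.3 ± 10.7 (1.35). At Nfe2l2 itself, a site 16.0 kb from the start, at chromosome 2, 75550552 to 75551552, went from 36.6 ± 4.43 to 91.0 ± 20.7 (log2 fold 1.28, SE 0.18, limma adjusted p = 1.81e-06). These are means ± SD with n = 3 libraries per group. Of all sites at these genes, 3 of 16 rose and 2 fell at Taldo1, and 4 of 14 rose and 0 fell at Maff. At Mafg 2 of 13 rose and 0 fell, and at Nfe2l2 4 of 15 rose and 2 fell. By the same rule, 16.1% of all sites rose and 13.5% fell. The rising shares at Taldo1 and Mafg were thus near that of all sites. Those at Maff and Nfe2l2 were higher, but rest on few sites and were not tested.

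Among falling sites of the list, the smallest p-values were at Fth1, Gpx4, Blvra and Tkt. A site 45.1 kb from the start of Fth1, the ferritin heavy chain, went from 81.5 ± 17.4 to 27.4 ± 2.77 (log2 fold -1.52, SE 0.19, limma adjusted p = 1.79e-07). One 13.7 kb from the start of Gpx4, which reduces lipid peroxides with glutathione, went from 167 ± 15.5 to 80.0 ± 1.86 (-1.04). At Blvra, whose enzyme acts on the biliverdin that haem oxygenase makes, a site 43.2 kb from the start went from 50.9 ± 1.80 to 20.9 ± 6.39 (-1.29), and at Tkt, which encodes transketolase, a site 30.2 kb away went from 126 ± 13.2 to 80.1 ± 10.2 (-0.64). These are again means ± SD with n = 3 per group. At Fth1 more sites rose than fell, 5 against 3 of 19. At Gpx4 2 of 16 sites rose and 6 fell, at Blvra 0 of 13 rose and 4 fell, and at Tkt 1 of 15 rose and 2 fell, where 16.1% of all sites rose and 13.5% fell.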

How the data were processed

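Chromatin immunoprecipitation libraries for CTBP2 (3 vehicle, 3 LPS) were read from 1 deposited table. Its library columns hold the authors' normalised signal per site. It also holds deposited log2 concentrations and a deposited log2 fold, and the authors' p-values and FDR. Per the submitters' processing notes the tools included BWA 0.7.17, MACS3 3.0.0a5 and DiffBind 3.16, and the builds mm39, GRCm39 and mm10. How the signal was normalised, and whether peaks were called per library, were not given in the sources used here.

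Each column was divided by its median over all 62236 sites and multiplied by the geometric mean of the 6 medians (46.9). limma 3.58.1 (R 4.3.3, trend and robust options, no covariates) was fitted to log2(value + 1) over all sites, and was checked on simulated data. Sums were compared by exact permutation (scipy 1.17.1). Values up to 300 steps were whole multiples of 1 step per column within 0.1. No count model was used, since the table holds normalised values that were not accepted as recovered reads. For offsets, starts were shifted by up to 1000 kb in steps of 250 bp. Pathway genes needed at least 3 hits among 10 starts on each side and 8 in all. In a check on 1484 genes, 966 were placed, and 53.8% of these had a site within 500 bp of their left-out start, against 6.21% with no shift.

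Sites given in full were the 3 highest, the 3 rising and the 3 falling with the smallest p, for each window. Hmox1 site 7 and Slc7a11 site 2 were added for their place at a gene start as placed by a measured offset, after their values were seen. Most alike sites were the 3 with the smallest difference (1 of those for Slc7a11 is not reported here), and pathway genes the 4 with the smallest p in each direction. The members and lists were chosen with earlier results of these data known. Alternatives were other scalings, pseudocounts, a filter on low values, a replicate block, plain limma, wider windows and leaving out each library.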

Additional observations from a re-analysis of the deposited data

How the results depend on the processing

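On the deposited values without median scaling, 1178 sites of the whole table were called higher and 30 lower, with 3 Slc7a11 sites higher and 0 Hmox1 sites lower. Without limma's trend and robust options 2 Hmox1 sites were lower, and the 5 higher Slc7a11 sites held site 5 in place of site 8. Over all sites 9510 were then higher and 7280 lower. With windows wider by 25 kb on each side 1 Hmox1 site was higher and 6 were lower. Leaving out 1 library at a time gave 2 to 4 Hmox1 sites lower and 4 to 6 Slc7a11 sites higher. Over all sites it gave 6032 to 7913 lower and 7691 to 10081 higher, against 8409 and 10034 with all libraries. The cause of these changes was not tested. Sign changes arose only at sites that did not pass: Slc7a11 site 4 had a log2 fold of 0.025 on the deposited values and from -0.11 to 0.046 without single libraries, Hmox1 site 7 from -0.049 to 0.19 without single libraries, and Hmox1 site 9 -0.026 with quantile normalisation and from -0.019 to 0.27 without single libraries. The other pseudocounts (0.5 and 5), the filter at a mean of 20 and quantile normalisation changed no call among the 23 sites. Whether the replicate numbers pair the libraries could not be settled. Deviations of same-numbered libraries correlated at 0.111, 0.0385 and 0.214. Those of differently numbered vehicle and LPS libraries correlated at -0.205 to 0.148. With the replicate block, 11692 sites were higher and 10398 lower, with 5 Slc7a11 sites higher and 6 Hmox1 sites lower. The planned tests on counts were not run, since the values are normalised and were not accepted as recovered reads.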

Other observations

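Beyond the windows, further sites within 200 kb were called. At 174.6 kb above Slc7a11 site 9, a site at chromosome 3, 50572064 to 50573064, went from 29.6 ± 4.87 to 90.5 ± 10.3 (SD, n = 3 each), a log2 fold of 1.59 (limma adjusted p = 3.31e-08), close to that of Slc7a11 site 3. Another, 104.5 kb above site 9, had a log2 fold of 1.04 (limma adjusted p = 0.0485). Above the Hmox1 window, a site 50.7 kb from site 14 rose by a log2 fold of 1.23 (limma adjusted p = 0.0138), and sites 73.3 and 76.3 kb away had -0.99 (limma adjusted p = 0.000199) and -0.80 (limma adjusted p = 0.0397). These sites were chosen after their values were seen, and which gene they serve is not known from the table.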
